A study of Homo sapiens with 12 samples.

Results

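The genes described here encode subunits of the mitochondrial respiratory chain that are read from nuclear DNA. They were the 43 gene rows, of 63677 in the count table, whose Ensembl identifiers match a fixed list of symbols: 21 of complex I, 4 of complex II, 7 of complex III and 11 of complex IV, with NDUFA4 given under complex IV. Each symbol matched 1 row. After the filter on low counts 38 of the 43 were tested among 17862 genes, and these were 18, 3, 7 and 10 genes of complexes I, II, III and IV.

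RNA was sequenced from PANC-1 and MIA PaCa-2, established human pancreatic carcinoma cell lines, after transfection with siRNA. The 4 groups were PANC-1 with RBM3 siRNA, PANC-1 with control siRNA, MIA PaCa-2 with RBM3 siRNA and MIA PaCa-2 with control siRNA, with 3 libraries each. RBM3 is a cold-inducible RNA-binding protein, and the study compared transcriptomes with and without its knockdown. The knockdown used a mixture of 2 siRNAs, the controls received a negative control siRNA, and all groups had 25 nM siRNA with Lipofectamine 2000 for 4.5 h without serum after 72 h of culture, followed by recovery overnight. The labels name 2 media, RPMI1640 and DMEM, without saying which line grew in which, and they call the material both total and cytoplasmic RNA. Each line is a single line, so a difference between lines is one between these cells only. Nothing in the labels states that replicates came from separate cultures, and the p-values then describe the spread between these libraries alone, which may be technical.

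The respiratory chain passes electrons from NADH, through complex I, and from succinate, through complex II, to ubiquinone, then through complex III and cytochrome c to complex IV, which reduces oxygen. Complexes I, III and IV pump protons, and ATP synthase uses the resulting gradient. Complexes I, III and IV are built from a core of catalytic subunits, several of them encoded by mitochondrial DNA, and a shell of accessory subunits that are all encoded in the nucleus, so their assembly needs both genomes. The 37 mitochondrially encoded rows of the table held 0 counts in all libraries, so only the nuclear contribution could be read.

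Total counts ranged from 31440551 to 33341322 in PANC-1 with RBM3 siRNA, 14217185 to 23993638 in PANC-1 with control siRNA, 17861847 to 33358837 in MIA PaCa-2 with RBM3 siRNA and 16094995 to 39652502 in MIA PaCa-2 with control siRNA. The siRNA target RBM3 had 96.5, 195 and 83.0 CPM (read counts scaled to a common library size with TMM normalisation) in PANC-1 siRNA replicates 1, 2 and 3, against 567, 426 and 436 CPM in control replicates 1, 2 and 4. In MIA PaCa-2 it had 44.4, 37.4 and 61.9 CPM in siRNA replicates 1, 2 and 5, against 250, 277 and 207 CPM in control replicates 1, 2 and 4. In either line the siRNA and control libraries did not overlap. The log2 fold change of RBM3 was -1.93 in PANC-1 (SE 0.30, edgeR adjusted p 0.516, DESeq2 adjusted p 1.51e-05) and -2.35 in MIA PaCa-2 (SE 0.31, edgeR adjusted p 0.0426, DESeq2 adjusted p 6.07e-09). PANC-1 siRNA replicate 3 also held transcripts typical of MIA PaCa-2: for 9 genes that separate the lines in these libraries it lay between 31.5% and 61.9% of the way from the PANC-1 to the MIA PaCa-2 mean, and COL1A2 reached 441 CPM in it, against at most 1.67 CPM in the other PANC-1 libraries. For some of the results that use this library, values without it are also given. Summed levels of 5 epithelial markers (keratins, EPCAM and CDH1) were 3910 to 7510 CPM in PANC-1 and 1940 to 3430 CPM in MIA PaCa-2 libraries. Those of 5 fibroblast markers were 121 to 503 CPM and 900 to 1820 CPM. Those of 3 immune and 2 endothelial markers were at most 2.53 CPM and 0.476 CPM in any library. The sums hide differences between single genes. EPCAM and CDH1 had at most 0.0952 and 0.832 CPM in MIA PaCa-2. Under control siRNA COL1A1 had means of 163 CPM in PANC-1 and 0.806 CPM in MIA PaCa-2, and COL1A2 0.756 and 1510 CPM. PDGFRB was also higher in PANC-1, with at most 1.38 CPM, and DCN and LUM had at most 0.0694 and 0.0856 CPM. VIM, outside the sums, had 3350 to 6520 CPM in all libraries.

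Together the 43 genes held 0.497 ± 0.0821% of the counts in PANC-1 with RBM3 siRNA and 0.538 ± 0.0548% in PANC-1 with control siRNA (SD, n = 3 each). In MIA PaCa-2 the share was 0.521 ± 0.0318% with RBM3 siRNA and 0.479 ± 0.0497% with control siRNA (SD, n = 3 each). The siRNA and control groups differed by less than 1 SD of the PANC-1 groups in that line, and their single libraries overlapped in both lines. The plot of all tested genes by library shows the line differences as blocks of opposite colour and the low libraries as columns below their neighbours.

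**Figure D1:**
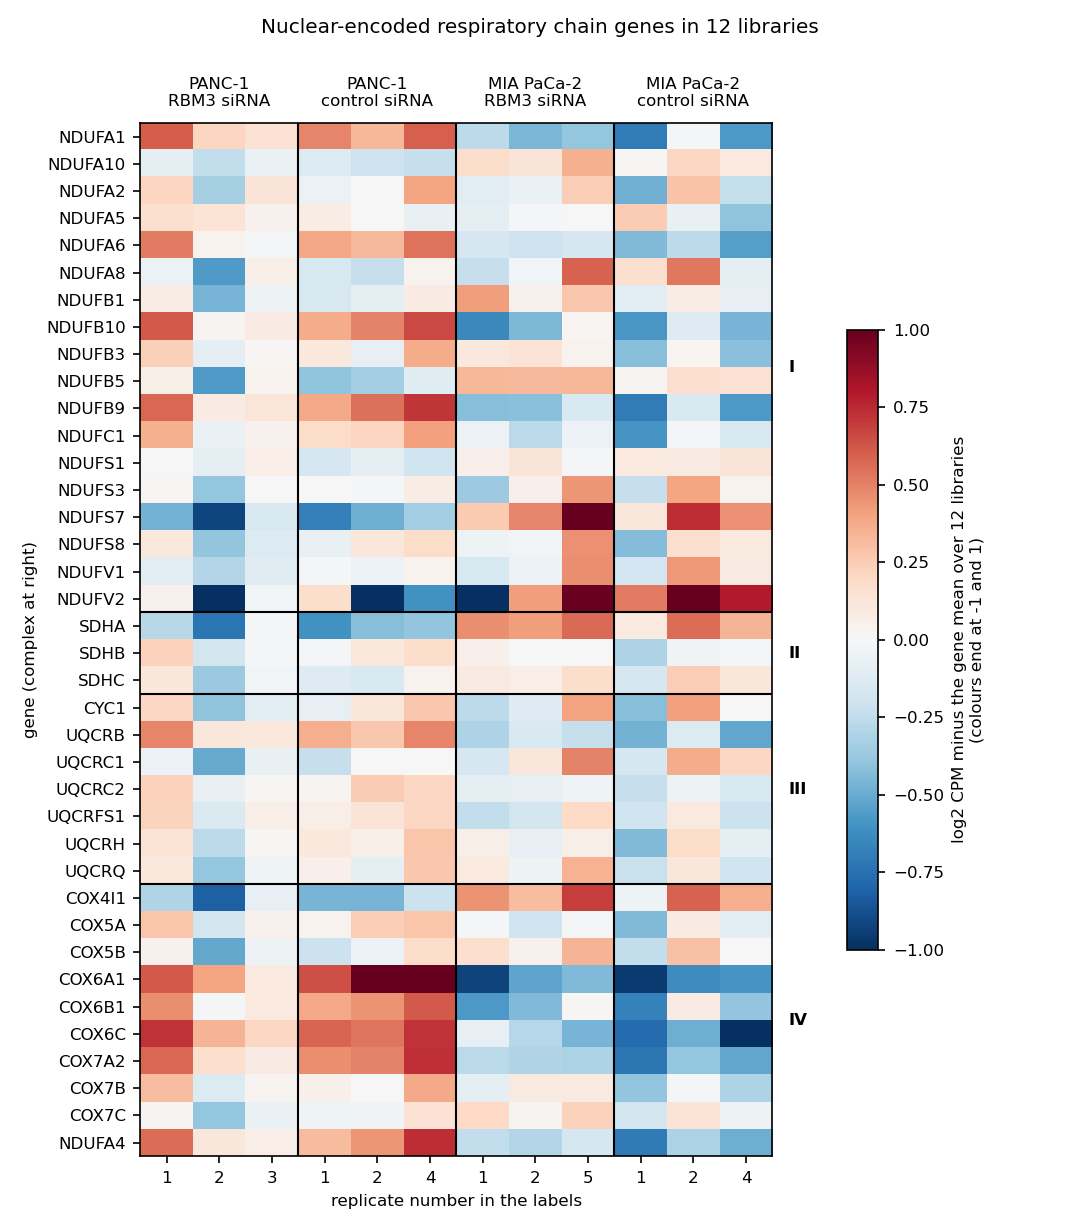
Each row is one of the 38 tested genes, grouped by complex, and each column one of the 12 libraries, grouped by line and siRNA; colour gives log2 CPM minus the gene's mean over the 12 libraries. COX6C, COX7A2 and NDUFB9 are high in the PANC-1 columns, NDUFS7, SDHA and COX4I1 are high in the MIA PaCa-2 columns, and PANC-1 siRNA replicate 2 and MIA PaCa-2 control replicate 1 are low in most rows.

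Of the 43 genes, 7 had few or no counts: NDUFA9, NDUFB8, NDUFC2, NDUFV2, SDHD, COX6A1 and COX8A. NDUFA9, an accessory complex I subunit, had 0 counts in every library, where the upper limit set by a count of 0 (3 counts) equals 0.0714 to 0.208 CPM depending on the library. NDUFB8 had at most 7 counts, NDUFC2 at most 3, SDHD, the membrane anchor of complex II, at most 8 and COX8A, a small complex IV subunit, at most 6. NDUFV2, a core iron-sulphur subunit of complex I, had 5 to 55 counts and COX6A1, the common isoform of a complex IV subunit, 57 to 292. The other 36 genes had between 585 and 12655 counts in every library.

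All 7 sparse genes share an annotation feature that the other 36 lack, an overlap of their coding bases. In the GENCODE 29 annotation, between 53.5% and 100% of their coding bases are overlapped on the same strand by another gene, whereas this share was 0% for each of the other 36 members. The partners include NDUFC2-KCTD14, which joins NDUFC2 to its neighbour, and AL133352.1, which overlaps NDUFB8. Their own rows held few reads too, from 0 to 39 counts over the 7 genes' partners. Over all exon bases the split was not complete. NDUFV1, outside the 7, had 16.7% overlapped on the same strand, more than NDUFA9 and near the 17.1% of NDUFC2. COX7C and NDUFS1, also outside the 7, had 5.0% and 3.3%. The remaining sparse genes had 22.2% to 82.9%. The annotation release behind the counts is not given in the sources used here, and whether its overlaps set the counts was not tested. The counts of these 7 genes are not read here as levels of expression, and the fold changes of COX6A1 and NDUFV2 rest on the reads that remained.

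**Figure D2:**
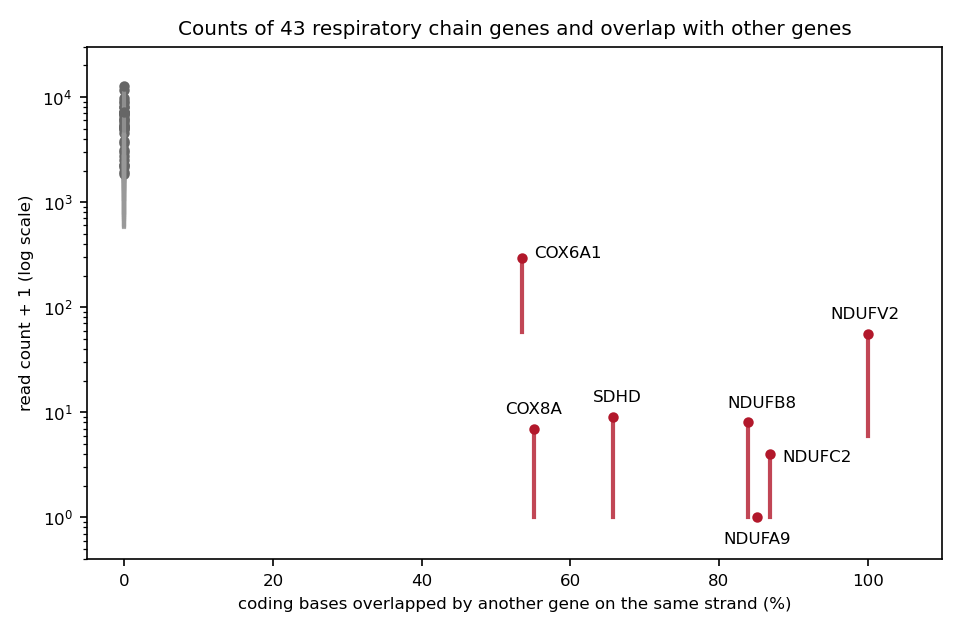
Each line spans the lowest to the highest read count of 1 gene over the 12 libraries, plus 1, on a log scale, with a dot at the highest; the horizontal axis is the percentage of its coding bases overlapped by another gene on the same strand. The 7 named genes lie at 53.5% or more with at most 292 counts, and the 36 unnamed genes lie at 0% with at least 585 counts.

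To compare genes with each other, CPM were divided by the median length of the gene's coding transcripts, in kilobases. Places within a complex are by the mean over the 4 groups. In complex IV the highest was COX4I1, the common isoform of subunit 4, with means of 297 and 295 CPM per kilobase in PANC-1 with RBM3 and control siRNA, and 538 and 479 CPM per kilobase in MIA PaCa-2 with RBM3 and control siRNA. That place comes from MIA PaCa-2: in PANC-1 COX5A and COX7A2 were higher than COX4I1, at 318 CPM per kilobase each with RBM3 siRNA and at 349 and 385 CPM per kilobase with control siRNA, where COX6B1 (341) and COX7C (298) were also above it. In complex III the highest was UQCRH, the hinge protein that contacts cytochrome c1, with 395, 447, 407 and 377 CPM per kilobase in the 4 groups in the same order. The lowest complex III gene was UQCRFS1, the Rieske iron-sulphur protein, with 43.7, 46.1, 40.2 and 39.2 CPM per kilobase, although with the length of the principal transcript UQCRB was lowest, at 21.3 over the groups against 42.3 for UQCRFS1.

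In complex I the highest was NDUFS8, a core iron-sulphur subunit, with 234, 270, 283 and 249 CPM per kilobase in that order of groups. In PANC-1 NDUFB10 was higher, with 238 CPM per kilobase under RBM3 siRNA and 282 under control siRNA. Outside the sparse genes the lowest complex I member was NDUFA5, an accessory subunit of the peripheral arm, at 31.7, 29.4, 28.6 and 28.4 CPM per kilobase, and the lowest complex IV member was NDUFA4 at 83.0, 98.2, 58.6 and 48.8. In complex II the highest was SDHC, a membrane anchor, with 251, 251, 287 and 279 CPM per kilobase. That place depends on the length: with the principal transcript SDHC averaged 9.05 CPM per kilobase over the groups and SDHB, the iron-sulphur subunit, was highest at 155. With the principal transcript NDUFB10 took the first place in complex I at 207 CPM per kilobase, ahead of NDUFS8 at 187, and NDUFS1, at 25.2, was below NDUFA5, at 26.4. UQCRH and COX4I1 stayed first by the mean over the groups, although COX6B1, at 341, exceeded COX4I1, at 327, in PANC-1 with control siRNA. With the sparse genes included, the lowest members of complexes I, II and IV were NDUFA9, SDHD and COX8A, at 0, 0.148 and 0.234 CPM per kilobase over the groups.

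In PANC-1, no respiratory chain gene passed the test between RBM3 siRNA and control siRNA. Small log2 fold changes below 0 were common: 30 of the 38 tested genes were negative and 8 positive, with a median of -0.13 against 0.03 over all genes tested. These counts include siRNA replicate 3, on which signs near 0 can rest. SDHA, counted as positive, had 216, 158 and 260 CPM in siRNA replicates 1, 2 and 3, against 172, 195 and 199 CPM in controls. By complex the medians were -0.10 for complex I, 0.00 for complex II, -0.13 for complex III and -0.17 for complex IV. All 7 complex III genes were negative, between -0.19 and -0.08. With edgeR 0 of 38 members passed at an adjusted p of 0.05, where 0.0% of all tested genes passed, and DESeq2 and limma-voom also called 0 members. At an unadjusted p under 0.05 edgeR gave 1 member, against 4.12% of all genes.

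That gene was COX6A1, with 8.85, 7.59 and 6.19 CPM in PANC-1 siRNA libraries, against 9.03, 12.9 and 12.9 CPM in controls. Its groups did not overlap, and its log2 fold change was -0.62 (SE 0.26, edgeR adjusted p 0.9997). It is one of the sparse genes. COX7A2, the common isoform of subunit 7a of complex IV, had 185, 140 and 132 CPM in siRNA libraries and 172, 176 and 206 CPM in controls, a log2 fold change of -0.28 (SE 0.16). Replicates 2 and 3 of the siRNA group lay below all controls and replicate 1 lay among them.

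NDUFA4, a subunit first assigned to complex I and now placed in complex IV, had 217, 159 and 154 CPM in PANC-1 siRNA libraries and 183, 200 and 246 CPM in controls, a log2 fold change of -0.24 (SE 0.17). NDUFB9, an accessory subunit of the complex I membrane arm, had 185, 132 and 135 CPM in siRNA libraries and 162, 182 and 204 CPM in controls, a log2 fold change of -0.28 (SE 0.19). In both genes replicate 1 was inside the control range and replicates 2 and 3 were below it. NDUFA6, an accessory subunit of the complex I peripheral arm, had 91.8, 65.7 and 63.0 CPM in siRNA libraries and 83.6, 80.3 and 93.3 CPM in controls. COX6B1, which faces the intermembrane space in complex IV, had 191, 137 and 148 CPM in siRNA libraries and 180, 189 and 211 CPM in controls. Their log2 fold changes were -0.22 (SE 0.17) and -0.28 (SE 0.22), again with replicate 1 apart from the other 2 libraries. Replicate 3 is the library with MIA PaCa-2 transcripts, and these 6 genes were all lower in MIA PaCa-2 than in PANC-1 under control siRNA. Without it the PANC-1 log2 fold changes were -0.51 for COX6A1, -0.20 for COX7A2, -0.17 for NDUFA4, -0.22 for NDUFB9, -0.14 for NDUFA6 and -0.25 for COX6B1.

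In a few members the PANC-1 groups did not overlap. NDUFS1, the largest core subunit of complex I, was the 1 member (2.63% of 38) with all siRNA libraries above all controls, against 3.75% of all genes. NDUFV1, which binds NADH in complex I, and COX6A1 were the 2 members (5.26%) with all siRNA libraries below all controls, against 2.77% of all genes. NDUFS1 had 179, 167 and 187 CPM in siRNA libraries and 159, 167 and 155 CPM in controls, so that its groups met to within rounding. The other tested members had log2 fold changes between -0.25 and 0.17.

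In MIA PaCa-2, no respiratory chain gene passed the test either, and the log2 fold changes leaned the other way. Of 38 genes 31 were positive and 7 negative, with a median of 0.12 against 0.00 over all genes tested. The medians were 0.11, 0.13, 0.08 and 0.17 for complexes I, II, III and IV. With edgeR 0 of 38 members passed at an adjusted p of 0.05, where 2 genes, 0.0112% of all tested, passed, and DESeq2 and limma-voom called 0 members. At an unadjusted p under 0.05 edgeR gave 1 member, against 2.94% of all genes.

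That gene was COX6C, a small accessory subunit of complex IV, with 86.7, 75.1 and 66.2 CPM in MIA PaCa-2 siRNA libraries, against 53.7, 65.3 and 45.2 CPM in controls. The groups did not overlap and the log2 fold change was 0.47 (SE 0.18, edgeR adjusted p 1.0). COX7A2 had 103, 101 and 100 CPM in siRNA libraries and 75.5, 95.0 and 86.9 CPM in controls, a log2 fold change of 0.24 (SE 0.16). NDUFA4 had 124, 120 and 130 CPM in siRNA libraries and 90.0, 118 and 105 CPM in controls, a log2 fold change of 0.26 (SE 0.17). In both genes the siRNA libraries lay close together above the controls.

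NDUFB3, an accessory subunit of the complex I membrane arm, had 53.6, 54.9 and 51.1 CPM in MIA PaCa-2 siRNA libraries and 37.2, 50.7 and 37.4 CPM in controls, a log2 fold change of 0.35 (SE 0.18). NDUFB1, of the same arm, had 75.1, 57.9 and 67.6 CPM in siRNA libraries and 52.0, 59.1 and 53.0 CPM in controls, a log2 fold change of 0.29 (SE 0.17). The NDUFB3 groups did not overlap, while 1 siRNA library of NDUFB1 lay inside the control range. COX7B, a small subunit of complex IV, had 119, 136 and 136 CPM in siRNA libraries and 97.1, 126 and 103 CPM in controls, and its groups overlapped between 119 and 126 CPM (log2 fold change 0.26, SE 0.17).

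All siRNA libraries lay above all controls for 7 members (18.4% of 38) in MIA PaCa-2, against 4.41% of all genes: NDUFA4, NDUFA6, NDUFB3, NDUFB5, SDHB, COX6C and COX7A2. All lay below for 0 members, against 3.63% of all genes. The members share libraries, so these counts are not independent observations. The other tested members had log2 fold changes between -0.66, for the sparse NDUFV2, and 0.23.

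**Figure D3:**
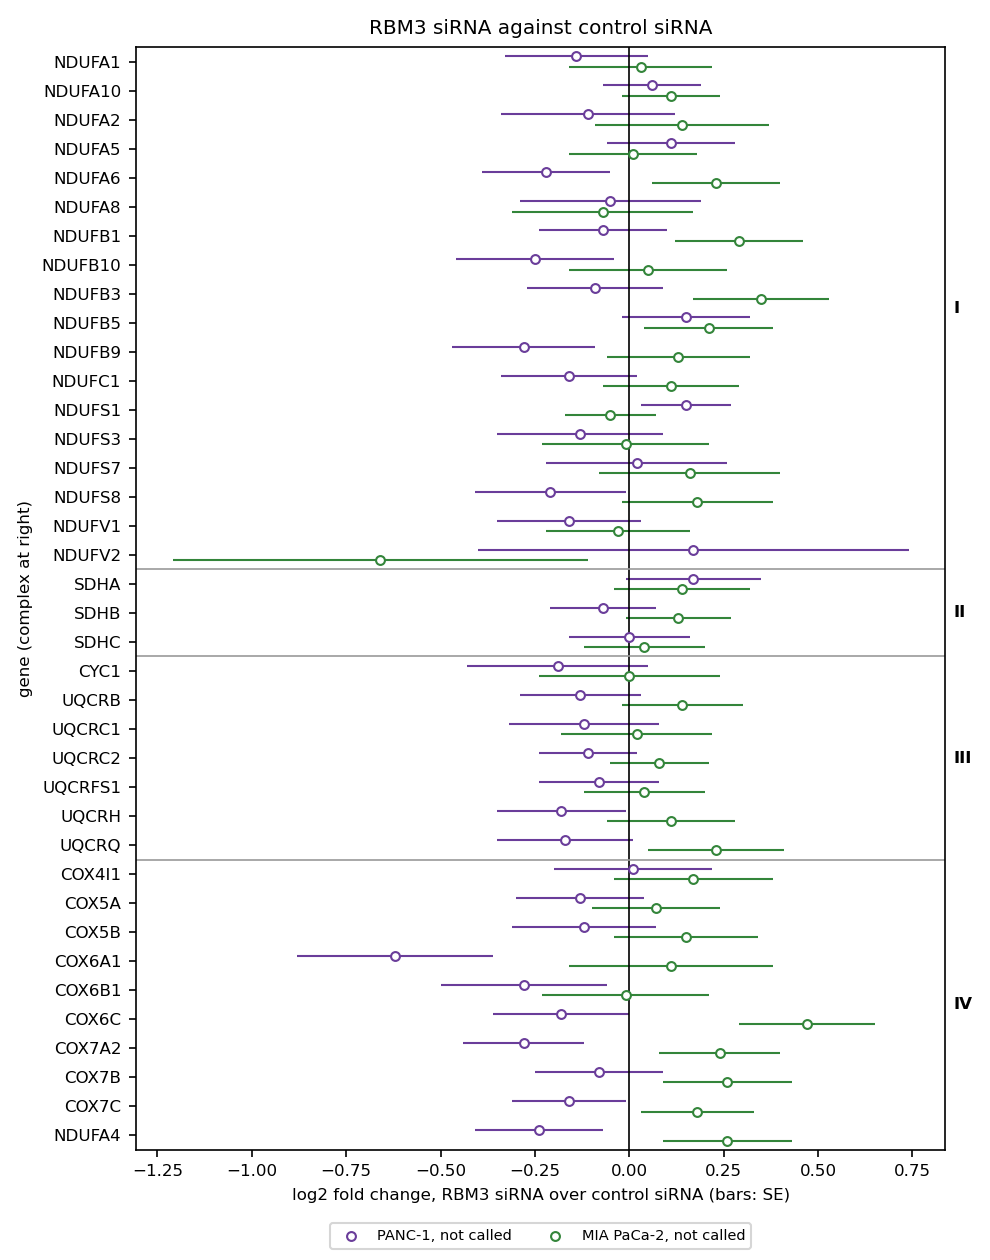
Each point is the log2 fold change of 1 gene between RBM3 siRNA and control siRNA, with its SE as a bar, for PANC-1 (upper point of each pair) and MIA PaCa-2 (lower point); genes are grouped by complex and open points were not called. Most PANC-1 points lie left of 0 and most MIA PaCa-2 points right of it, and COX6A1 in PANC-1 and NDUFV2 in MIA PaCa-2, both sparse, lie farthest left.

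Whole libraries moved these genes together. For each library the deviation of each of the 38 genes from its mean over the line was taken on the log2 scale. In PANC-1 the median deviations were 0.14, -0.30 and -0.04 in siRNA replicates 1, 2 and 3, against -0.03, 0.02 and 0.19 in control replicates 1, 2 and 4. In siRNA replicate 2 only 1 of 38 genes lay above the mean of the line, and in siRNA replicate 1 there were 36. In MIA PaCa-2 the median deviations were 0.01, -0.02 and 0.19 in siRNA replicates 1, 2 and 5, against -0.29, 0.16 and -0.07 in control replicates 1, 2 and 4. In control replicate 1 only 4 of 38 genes lay above the mean of the line. Over all tested genes the median deviation of any library was between -0.02 and 0.03. TMM normalisation itself brings the bulk of genes near 0, so this median cannot show that the movement was particular to these genes. Other gene groups are not given here in this way.

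The medians of the siRNA comparisons changed in size with single libraries, but kept their sign when any 1 library was left out. Without PANC-1 siRNA replicate 2 the median of the members in PANC-1 was -0.04, and without control replicate 4 it was -0.07. Without MIA PaCa-2 control replicate 1 the median in MIA PaCa-2 was 0.03, without siRNA replicate 5 it was 0.04, and without control replicate 2 it was 0.24. Depth moved with the group in PANC-1, where every siRNA library had more counts than every control library, so depth and siRNA cannot be told apart there. With log2 total counts in the model the PANC-1 median was 0.04. The lowest library of each line was also the deepest of that line. Depth and level did not always go together: PANC-1 siRNA replicate 1 had 32564458 counts, near the 33341322 of replicate 2, and lay at 0.14.

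**Figure D4:**
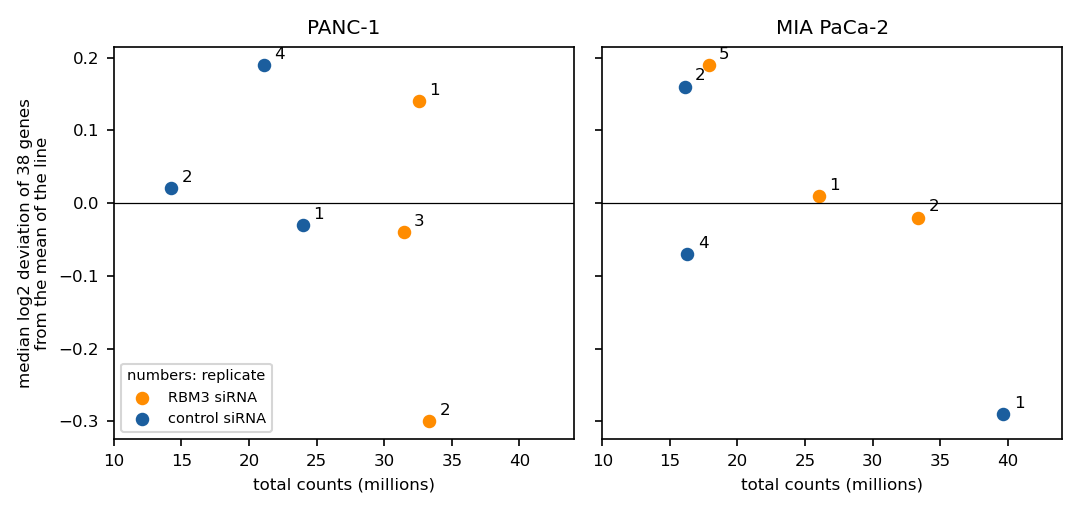
Each point is 1 library, numbered by its replicate; the horizontal axis is its total count and the vertical axis the median log2 deviation of the 38 genes from their mean in that line. PANC-1 siRNA replicate 2 lies at -0.30 and MIA PaCa-2 control replicate 1 at -0.29, and these are the deepest libraries of their lines.

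The difference between the responses, PANC-1 minus MIA PaCa-2, was negative for 33 of 38 genes with a median of -0.22, against 0.06 over all genes tested. With edgeR 0 members passed at an adjusted p of 0.05, where 0.0% of all genes passed, and 2 members had an unadjusted p under 0.05, against 2.98% of all genes; DESeq2 and limma-voom called 0 members. These 2 were COX6C, with a difference of -0.65 (SE 0.26, edgeR adjusted p 0.9999), and COX7A2, with a difference of -0.52 (SE 0.23). NDUFA4 followed at -0.51 (SE 0.25) and the sparse COX6A1 at -0.73 (SE 0.37). All 10 tested complex IV genes and all 7 complex III genes had a negative difference. The difference is made from the same libraries as the responses in each line and adds no separate observation to them. The counts and values above include PANC-1 siRNA replicate 3, the library with MIA PaCa-2 transcripts. For COX6C, COX7A2, NDUFA4 and COX6A1, all higher in PANC-1 under control siRNA, it was the lowest PANC-1 siRNA library. When each library was left out, the difference lay between -0.8 and -0.54 for COX6C and between -0.67 and -0.43 for COX7A2.

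Between the lines, a set of respiratory chain genes differed under control siRNA. Of 38 tested genes 11 were higher and 3 lower in PANC-1 at an edgeR adjusted p of 0.05, together 36.8%, where 50.8% of all tested genes differed. The share of members higher, 11 of 38, stood beside 26.0% of all genes, and the share lower, 3 of 38, beside 24.8%. The median log2 fold change was 0.19, against 0.00 over all genes. By complex, 5 genes were higher and 1 lower in complex I, 0 and 1 in complex II, 1 and 0 in complex III, and 5 and 1 in complex IV, where the median was 0.59. The sparse NDUFV2 had a log2 fold change of -1.39 and was not called. The same 14 genes were called by limma-voom, and DESeq2 called these with COX7B, NDUFB3 and UQCRC2 in addition.

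The largest differences were in small complex IV subunits. COX6C had 137, 133 and 151 CPM in PANC-1 control libraries, against 53.7, 65.3 and 45.2 CPM in MIA PaCa-2 control libraries, a log2 fold change of 1.36 (SE 0.19, edgeR adjusted p 0.000108). COX7A2 had 172, 176 and 206 CPM in PANC-1 and 75.5, 95.0 and 86.9 CPM in MIA PaCa-2, a log2 fold change of 1.11 (SE 0.16, edgeR adjusted p 0.000170). Every PANC-1 library exceeded every MIA PaCa-2 library by a wide margin in both. COX6A1 had 9.03, 12.9 and 12.9 CPM in PANC-1 and 2.97, 3.73 and 3.85 CPM in MIA PaCa-2, a log2 fold change of 1.73 (SE 0.27) that rests on the reads left in a sparse row. NDUFA4 had 183, 200 and 246 CPM in PANC-1 and 90.0, 118 and 105 CPM in MIA PaCa-2, a log2 fold change of 1.01 (SE 0.18).

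Accessory subunits of complex I followed. NDUFB9 had 162, 182 and 204 CPM in PANC-1 control libraries and 76.6, 112 and 83.5 CPM in MIA PaCa-2 control libraries, a log2 fold change of 1.01 (SE 0.19). NDUFB10, also of the membrane arm, had 180, 196 and 220 CPM in PANC-1 and 93.0, 127 and 101 CPM in MIA PaCa-2, a log2 fold change of 0.89 (SE 0.21). The groups did not overlap in either gene. NDUFA1 was higher by 0.87 (SE 0.19), NDUFA6 by 0.83 (SE 0.17), COX6B1 by 0.78 (SE 0.22) and UQCRB, an accessory subunit of complex III, by 0.75 (SE 0.16) on the log2 scale. NDUFC1, at 0.51 (SE 0.18, edgeR adjusted p 0.0339), was no longer called without any 1 of 4 control libraries, namely MIA PaCa-2 replicates 1 and 4 and PANC-1 replicates 2 and 4.

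The 3 genes lower in PANC-1 included 2 catalytic subunits. NDUFS7, the core complex I subunit that carries the iron-sulphur cluster next to ubiquinone, had 48.4, 55.3 and 61.2 CPM in PANC-1 control libraries, against 83.9, 130 and 107 CPM in MIA PaCa-2 control libraries, a log2 fold change of -0.96 (SE 0.24, edgeR adjusted p 0.00589). SDHA, the flavoprotein that oxidises succinate in complex II, had 172, 195 and 199 CPM in PANC-1 and 280, 385 and 331 CPM in MIA PaCa-2, a log2 fold change of -0.82 (SE 0.18, edgeR adjusted p 0.00294). COX4I1 had 220, 220 and 262 CPM in PANC-1 and 294, 457 and 391 CPM in MIA PaCa-2, a log2 fold change of -0.70 (SE 0.21, edgeR adjusted p 0.0143). No PANC-1 library reached the lowest MIA PaCa-2 library in these 3 genes. COX4I1 was no longer called without MIA PaCa-2 control replicate 2 (log2 fold change -0.54, edgeR adjusted p 0.0625). Of the 75-base stretches of NDUFS7, 18.8% also occur in antisense genes at its locus, and 10.4% of those of SDHA occur in other transcripts such as the pseudogene SDHAP3. Some of their reads may thus not have been told apart, depending on the strand setting and the other read of the pair. The same holds for genes higher in PANC-1: the shared part was 38.6% in NDUFA1 (with RNF113A), 37.1% in COX6A1 (with the pseudogene COX6A1P2 among others) and 18.5% in NDUFB9 (with TATDN1 among others).

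All 11 genes higher in PANC-1 are accessory subunits, a division into core and accessory made after the values were seen. The members include no core subunit of complex IV, so the 5 higher genes of that complex could only be counted as accessory. The tested core subunits include the sparse NDUFV2. Of the 11 tested core subunits 0 were higher and 2 were lower, NDUFS7 and SDHA, with a median of -0.15. Of the 27 tested accessory subunits 11 were higher and 1 was lower, with a median of 0.34. Of all tested genes 26.0% were higher and 24.8% lower. The median coding transcript was 705 nucleotides for the genes higher in PANC-1, 1039 for those lower and 779.75 for those not called.

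Under RBM3 siRNA, 13 of 38 genes (34.2%) differed between the lines, where 43.6% of all tested genes differed. The values come from the other 6 libraries, but both comparisons share 1 model, with its filter and estimate of spread, and are not fully separate. With the 2 control groups alone 16 genes were called, and with the 2 RBM3 siRNA groups alone 8. Of the 13 genes 8 were higher in PANC-1, beside 24.2% of all genes, and 5 lower, beside 19.3%. The calls shared with the control libraries were 11, which is 84.6% of the calls under RBM3 siRNA and 78.6% of those under control siRNA. All 14 genes called under control siRNA had the same sign. The matching shares over all tested genes are not given here, so the overlap of calls is not read as a trait of the members. NDUFA6, NDUFC1 and COX6B1 were called under control siRNA alone, and NDUFA10 and NDUFB5, both lower in PANC-1, under RBM3 siRNA alone. NDUFA10 had 160, 144 and 163 CPM in PANC-1 and 193, 186 and 218 CPM in MIA PaCa-2 under RBM3 siRNA, a log2 fold change of -0.36 (SE 0.13, edgeR adjusted p 0.0387). NDUFB5 had 130, 84.5 and 128 CPM in PANC-1 and 157, 156 and 157 CPM in MIA PaCa-2, a log2 fold change of -0.46 (SE 0.17, edgeR adjusted p 0.0445). Their groups did not overlap, but the calls were lost in 13 and 15 of 22 alternative fits. Without PANC-1 siRNA replicate 3, the library with MIA PaCa-2 transcripts, 14 genes were called and 12 were shared, 85.7% of either set. Without MIA PaCa-2 siRNA replicate 1, MIA PaCa-2 siRNA replicate 2 or PANC-1 siRNA replicate 1 the count was 7.

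Under RBM3 siRNA COX6C had 151, 116 and 106 CPM in PANC-1 and 86.7, 75.1 and 66.2 CPM in MIA PaCa-2, a log2 fold change of 0.71 (SE 0.18, edgeR adjusted p 0.00870). COX7A2 had 185, 140 and 132 CPM in PANC-1 and 103, 101 and 100 CPM in MIA PaCa-2, a log2 fold change of 0.59 (SE 0.16). The groups stayed apart in both genes, with smaller log2 fold changes than under control siRNA. The test of that difference is the one given above, which no gene passed. In both genes PANC-1 siRNA replicate 3, the library with MIA PaCa-2 transcripts, was the lowest PANC-1 siRNA library. When each library was left out, the log2 fold change lay between 0.56 and 0.82 for COX6C and between 0.44 and 0.67 for COX7A2. NDUFS7 had 56.1, 41.1 and 69.6 CPM in PANC-1 and 93.1, 109 and 157 CPM in MIA PaCa-2, a log2 fold change of -1.11 (SE 0.24, edgeR adjusted p 0.00369). SDHA and COX4I1 had log2 fold changes of -0.79 (SE 0.18) and -0.86 (SE 0.21). In all 3 of these genes PANC-1 siRNA replicate 3 was the highest of the PANC-1 siRNA libraries, and without it the log2 fold changes were -1.30, -0.97 and -1.03.

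**Figure D5:**
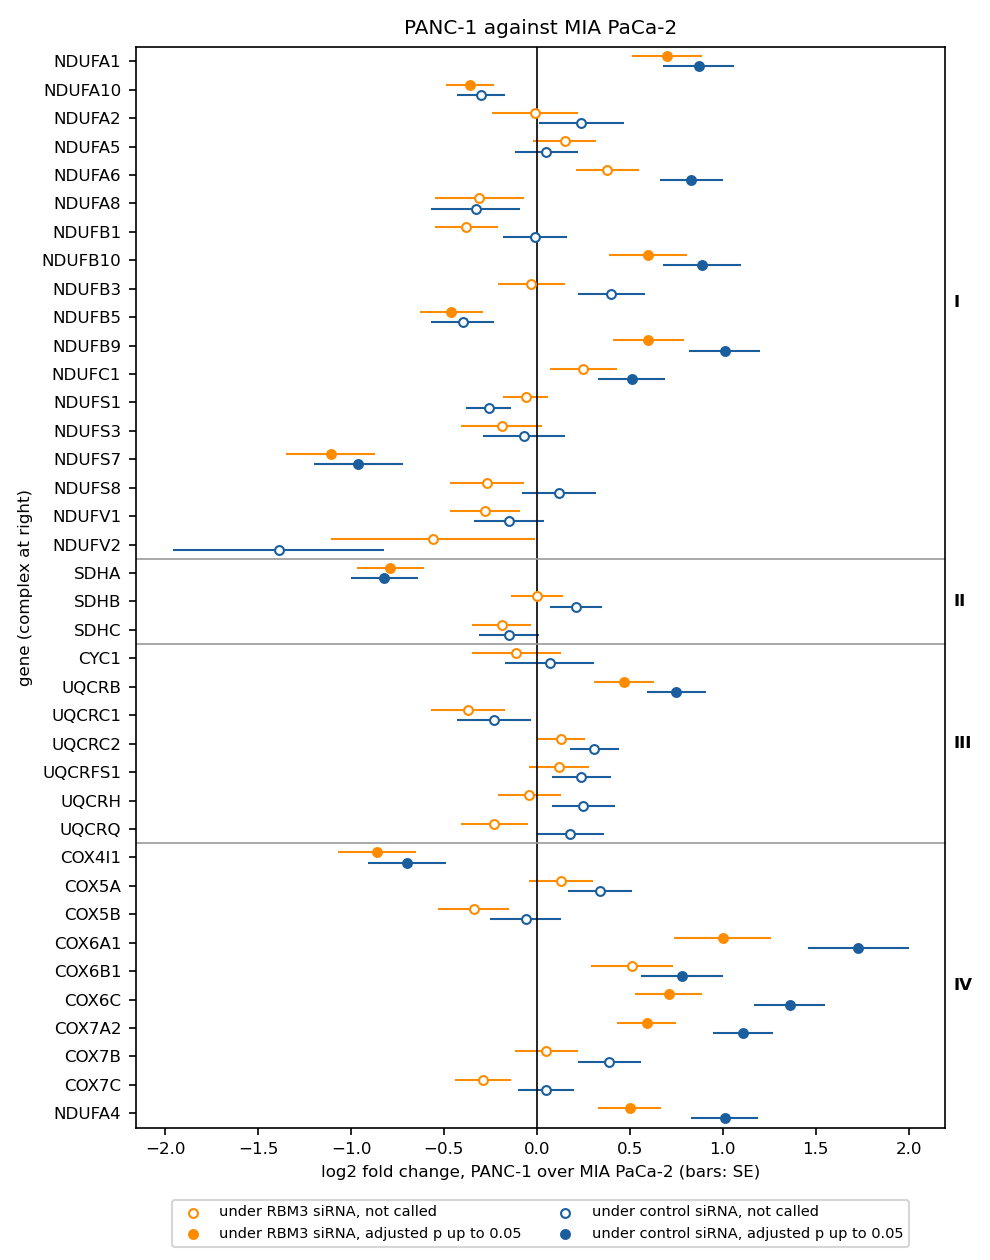
Each point is the log2 fold change of 1 gene in PANC-1 over MIA PaCa-2, with its SE as a bar, under RBM3 siRNA (upper point of each pair) and control siRNA (lower point); filled points were called at an adjusted p up to 0.05 and genes are grouped by complex. COX6A1, COX6C, COX7A2, NDUFA4 and NDUFB9 lie at the right in both, and NDUFS7, SDHA and COX4I1 at the left in both.

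The promoters of some of these genes carry sequences known to bind nuclear regulators of respiratory genes, NRF1 and the ETS factor GABP. The RefSeq promoter table (GRCh38.p14) held 35 of the 43 genes, and NDUFA4, NDUFB5, NDUFB9, NDUFC2, SDHC, UQCRB, CYC1 and COX6C were not in it. In the 250 bases before each start, on both strands, GCGCANGCGC for NRF1 was found in 5 of the 35 genes (14.3%), against 6.20% of 27305 genes in the table, and CCGGAAG for ETS factors in 11 (31.4%), against 10.2%. AAGATGG, for YY1, was found in 2 (5.71%), against 4.49%. NRF1 or ETS letters were found in 3 of the 7 genes higher in PANC-1 that had a promoter, in 1 of the 3 lower and in 8 of the 21 not called. The following promoters belong to the called genes with a match, upstream bases only, read 5′ to 3′ on the strand of the gene, with matches in capitals (NRF1 letters in SDHA; in the others ETS letters on the opposite strand, which read CTTCCGG here). They were at chr5:218070-218319 (plus strand) for SDHA, chrX:119871582-119871831 (plus) for NDUFA1, chr19:35648073-35648322 (plus) for COX6B1 and chr12:120437863-120438112 (plus) for COX6A1.
SDHA: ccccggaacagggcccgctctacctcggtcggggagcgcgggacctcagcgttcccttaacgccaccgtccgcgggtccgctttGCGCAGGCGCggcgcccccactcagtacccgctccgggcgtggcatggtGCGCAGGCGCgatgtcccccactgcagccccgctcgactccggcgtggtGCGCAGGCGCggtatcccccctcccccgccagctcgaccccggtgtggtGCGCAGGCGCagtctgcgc
NDUFA1: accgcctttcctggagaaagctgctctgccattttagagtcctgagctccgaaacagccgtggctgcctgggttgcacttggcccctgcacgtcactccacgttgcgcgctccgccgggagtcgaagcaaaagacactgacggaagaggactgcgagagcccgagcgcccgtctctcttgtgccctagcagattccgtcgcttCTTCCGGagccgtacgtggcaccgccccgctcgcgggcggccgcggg
COX6B1: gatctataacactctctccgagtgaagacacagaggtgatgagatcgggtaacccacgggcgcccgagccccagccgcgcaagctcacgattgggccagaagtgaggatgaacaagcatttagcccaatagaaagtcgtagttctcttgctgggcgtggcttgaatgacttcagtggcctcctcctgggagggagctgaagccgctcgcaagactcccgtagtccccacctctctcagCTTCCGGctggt
COX6A1: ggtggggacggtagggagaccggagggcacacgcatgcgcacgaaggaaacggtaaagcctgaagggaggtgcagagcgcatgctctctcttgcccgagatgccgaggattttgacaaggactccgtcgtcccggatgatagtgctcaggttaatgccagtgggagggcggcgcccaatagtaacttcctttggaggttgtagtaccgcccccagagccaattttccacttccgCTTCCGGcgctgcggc
SDHA, lower in PANC-1, held 4 separate matches to the NRF1 letters, and NDUFA1, COX6B1 and COX6A1, higher in PANC-1, held 1 match each to the ETS letters. A match of letters describes the sequence and says nothing of binding in these cells.

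Other genes of oxidative phosphorylation were read from fixed lists. In both siRNA comparisons and in the difference of the responses 0 genes of any of these lists passed in edgeR. Between the lines their counts stand beside the 50.8% of all tested genes that differed under control siRNA, 26.0% higher and 24.8% lower. Among 16 tested structural subunits of complexes I, III and IV outside the 43, 6 were higher and 4 lower in PANC-1 under control siRNA, together 62.5%, against 50.8% of all genes. NDUFB11 was lower by -1.33 on the log2 scale (SE 0.27) and NDUFAB1, the mitochondrial acyl carrier protein, was higher by 1.15 (SE 0.17). NDUFA11, at -2.07 (SE 0.69), had at most 0.584 CPM in any library. NDUFA13, also among the tested, had at most 0.785 CPM. Overlaps with other genes were examined for the 43 alone, not for these lists.

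Of 17 tested ATP synthase genes 6 were higher and 4 lower in PANC-1 under control siRNA, together 58.8% and near the 50.8% of all genes. ATP5F1A, the alpha subunit of the catalytic head, had 298, 342 and 323 CPM in PANC-1 and 689, 902 and 791 CPM in MIA PaCa-2, a log2 fold change of -1.31 (SE 0.23). ATP5MG, a small subunit of the membrane part, had 243, 277 and 291 CPM in PANC-1 and 88.4, 134 and 102 CPM in MIA PaCa-2, a log2 fold change of 1.32 (SE 0.19). ATP5MC1, one of the genes for the rotor ring subunit, was higher by 1.19 (SE 0.25).

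Of 46 tested assembly factors 7 were higher and 11 lower in PANC-1 under control siRNA, together 39.1% and below the 50.8% of all genes, with a median of -0.12. COX17, the copper chaperone of complex IV, had 57.7, 61.1 and 66.6 CPM in PANC-1 and 10.2, 15.2 and 9.90 CPM in MIA PaCa-2, a log2 fold change of 2.39 (SE 0.27). NUBPL, an iron-sulphur assembly factor of complex I, was lower by -2.0 (SE 0.24) and SDHAF3, an assembly factor of complex II, by -1.39 (SE 0.20). Of 4 tested alternative isoforms of subunits 1 was higher, UQCRHL at 0.64 (SE 0.23), which shares sequence with UQCRH.

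Of 13 tested regulators of nuclear respiratory genes and mitochondrial transcription 0 were higher and 3 lower in PANC-1 under control siRNA. The 3 are 23.1% of the list, near the 24.8% of all genes that were lower. POLRMT, the mitochondrial RNA polymerase, was at -1.05 (SE 0.25), GABPA, the DNA-binding subunit of GABP, at -0.84 (SE 0.28) and YY1 at -0.51 (SE 0.15). GABPA had 37.6, 44.8 and 59.7 CPM in PANC-1 with RBM3 siRNA, against 35.8, 30.3 and 22.7 CPM with control siRNA, a log2 fold change of 0.68 (SE 0.28, edgeR adjusted p 0.9997). In MIA PaCa-2 it had 111, 97.7 and 57.4 CPM with RBM3 siRNA, against 63.2, 39.9 and 55.9 CPM with control siRNA, a log2 fold change of 0.74 (SE 0.28, edgeR adjusted p 1.0). GABPA was singled out after its values were seen, and neither value passed the test over all genes.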

How the data were processed

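The authors deposited raw read counts per Ensembl gene, not normalised, in 1 table of 12 libraries. Reads were 75 bp from both ends of TruSeq libraries, per the labels' protocols; the tools STAR 2.5.2a, featureCounts, Subread and Picard, with genome hg19/GRCh37, were named in the submitters' processing notes. The sources used here do not give the annotation release, the strand setting or how duplicate reads were treated. Whether reads of genes that overlap on opposite strands were told apart is thus not known.

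Counts were tested with edgeR 4.0.16 (R 4.3.3) using its quasi-likelihood F-test (two-sided), with TMM normalisation, filterByExpr with a minimum count of 10 and a single fit over all 12 libraries, with 4 means and 8 residual degrees of freedom; p-values were adjusted over 17862 genes by the Benjamini-Hochberg method at 0.05. Each SE is approximate, the size of the log2 fold change over the square root of F. CPM are TMM-normalised. DESeq2 1.42.0, limma-voom (limma 3.58.1), other size factors and filters, 2 groups alone, the replicate number as a block, log2 total count as a covariate, other thresholds and leaving out each library were alternatives; DESeq2 without PANC-1 siRNA replicate 3, principal transcript lengths and the median without the 7 sparse genes were added after seeing the data. The model was checked on simulated counts. The chi-square per degree of freedom between replicates was 11.7 to 184, so no library repeated another.

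Gene lengths, overlaps and shared 75-base stretches came from GENCODE 29, a GRCh38 annotation, and no coordinates were taken to the build of the counts. Symbols came from a name table that matched 52181 of 63677 rows. Limits of counting cover counting error only. The members and gene lists were chosen with earlier results of these data known. Values by library are given for RBM3, for the 6 members with the smallest p in each siRNA comparison, the 4 with the smallest p in the difference, and up to 6 called members with the largest log2 fold change per direction between the lines, with the highest and lowest member of each complex by level per length, and up to 3 called genes of each other list by absolute log2 fold change.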

Additional observations from a re-analysis of the deposited data

How the results depend on the processing

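No called gene changed direction under any alternative that was run, and the count of members called in the siRNA comparisons and in their difference was 0 under each, DESeq2 and limma-voom included. Between the lines with control siRNA the count was 13 to 16 of 38 when each library was left out and 17 with DESeq2. Under RBM3 siRNA it was 13, with 5 at an adjusted p of 0.01, 8 with the 2 groups alone and 7 to 14 when each library was left out; fewer libraries entered the last 2 kinds of fit. The median log2 fold change of the siRNA response in PANC-1 was -0.13 and turned positive, at 0.04, with log2 total counts as a covariate; the cause was not tested. When each library was left out it lay between -0.20 and -0.04 in PANC-1, between 0.03 and 0.24 in MIA PaCa-2 and between -0.39 and -0.13 for the difference. Of the 13 calls between the lines under RBM3 siRNA, NDUFB5 was lost in 15 of 22 alternative fits, NDUFA10 in 13, NDUFA4 and UQCRB in 6, NDUFB10 in 5 and NDUFB9 in 3; under control siRNA NDUFC1 was lost in 6 and COX4I1 in 1. Replicate numbers 1 and 2 occur in every group, but samples with the same number did not deviate together: the correlations across genes were 0.014 and -0.0455 in MIA PaCa-2 and -0.402 and -0.326 in PANC-1. Pairs with different numbers in PANC-1 ran from -0.405 (control 4 with siRNA 2) to 0.563 (control 1 with siRNA 2). A block by replicate number does not follow that shared pattern. With the replicate number as a block 10 genes were called between the lines under RBM3 siRNA, 13 under control siRNA and 0 in each siRNA comparison. The 7 sparse genes had few counts in the deepest library too, and what sets their counts was not tested.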

Other observations

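Genes of the tricarboxylic acid cycle, which supplies NADH and succinate to the respiratory chain, were compared between the lines under control siRNA. Of 13 tested, 1 was higher and 4 were lower in PANC-1, together 38.5% and below the 50.8% of all tested genes that differed, with a median log2 fold change of -0.34 against 0.00 over all genes tested. SUCLG2, the GDP-forming subunit of succinyl-CoA ligase, had 51.7, 51.5 and 55.8 CPM in PANC-1 control libraries and 128, 137 and 143 CPM in MIA PaCa-2 control libraries, a log2 fold change of -1.36 (SE 0.17, edgeR adjusted p 4.28e-05). IDH3A, the catalytic subunit of the NAD-dependent isocitrate dehydrogenase, was higher by 0.81 (SE 0.17), and DLST, of the oxoglutarate dehydrogenase complex, was at -0.70 (SE 0.14).

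Among 15 tested genes of mitochondrial import, channels and cytochrome c, 4 were higher and 2 lower in PANC-1 under control siRNA, or 6 of 15, against 50.8% of all genes. TIMM50, a receptor of the inner membrane translocase, had 1410, 1280 and 1370 CPM in PANC-1 and 125, 177 and 136 CPM in MIA PaCa-2, a log2 fold change of 3.21 (SE 0.25). With RBM3 siRNA it had 1280, 1210 and 720 CPM in PANC-1, the lowest in replicate 3, and 113, 140 and 187 CPM in MIA PaCa-2. SLC25A6, an ADP/ATP carrier, was at -1.90 (SE 0.31), and VDAC3, an outer membrane channel, at -1.66 (SE 0.30).

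NDUFB9, UQCRB, CYC1 and COX6C all map to chromosome 8, and 3 of these 4 were higher in PANC-1 under control siRNA. Of 593 tested genes on that chromosome 31.2% were higher and 28.5% lower. DNA copy number was not analysed here.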
